A study of Homo sapiens with 3 samples.

Results

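The enzymes that build cholesterol and fatty acids were compared across 3 arrays of LvM3b, a human colon adenocarcinoma cell line, with 1 array for the control line and 1 for each of the lines that overexpress miR-483-5p or miR-551a. The members are 29 genes chosen by pathway: 18 cholesterol synthesis enzymes, 4 sterol regulators and transport proteins and 7 fatty acid synthesis enzymes, out of 25200 gene symbols on the array. The choice was made with earlier results of these data known. The members were found by symbol and carry 44 of the 48803 probes, under the older names SC4MOL for MSMO1 and SC5DL for SC5D. Total RNA was taken from cells of about equal confluency grown in serum-containing DMEM and hybridised to Illumina bead arrays. How the overexpression was made, and whether the cells are clones, is not given in the sources used here, and the arm of miR-483 is given as 5p in the series text but not in the sample's title. No probe carries a symbol of either microRNA, so the overexpression itself could not be read from the arrays.

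Each group was 1 array. There was therefore no replicate error and no test between groups, and every difference below is between single cultures. A difference is given on the log2 scale after background correction and quantile normalization, and a gene with several probes is given as the mean of its detected probes. Both comparisons with control use the same control array, so their likeness is not separate evidence. The median intensity was 84.9, 88.0 and 87.7 in the control, miR-483-5p and miR-551a arrays, with 13291 to 13925 probes detected. Of 9 colon epithelial markers on the array 8 were detected in every array, KRT20 being the exception, and their summed intensity was 31134.7 in control, 33805.0 with miR-483-5p and 35567.5 with miR-551a. Single colon markers differed from control in both directions, from -1.19 (GPA33) to 0.76 (KRT8) with miR-483-5p and from -1.36 (GPA33) to 1.49 (KRT8) with miR-551a. Of the markers of other cells that make lipid or could be admixed, 1 of 7 hepatocyte genes (SERPINA1), 0 of 5 adipocyte genes, 1 of 6 fibroblast genes (COL3A1) and 1 of 5 leukocyte genes (CD68) were detected in any array; albumin, adiponectin and PTPRC were not. Against control, SERPINA1 differed by 0.36 in the first overexpressing line and 0.10 in the second. CD68 differed by 0.48 (2 probes) and 0.82 (3 probes), and COL3A1, not detected with miR-551a, by -0.27 and a measured -0.87. With probes that 1 array missed set at their bound, the miR-551a values were 0.63 for CD68 and -0.44 for COL3A1. The part of these markers in the results was not tested.

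Cholesterol and fatty acids are both built from cytosolic acetyl-CoA. The genes of both branches are driven by the sterol regulatory element binding proteins, membrane-bound transcription factors encoded by SREBF1 and SREBF2 that are released to the nucleus when sterol in the endoplasmic reticulum is low. INSIG1 holds them back when sterol is plentiful and is itself one of their targets. SREBF2 products act mainly on cholesterol genes and SREBF1 products mainly on fatty acid genes, usually together with the CCAAT-binding factor NF-Y, and colon cancer cells commonly express the whole pathway while also taking up lipid from serum.

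The mature sequence of the overexpressed miR-551a is shown with its seed, bases 2 to 8, in capitals. RefSeq places it at chr1:3560710-3560730 on the minus strand of GRCh38.p14.
hsa-miR-551a: gCGACCCAcucuugguuucca

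Upstream sequences are shown for 4 members: SCD, with the lowest difference from control of the 7 fatty acid genes in the miR-551a comparison; TM7SF2, with the lowest difference of the 18 sterol enzymes there; INSIG1, the feedback gene; and MSMO1 (SC4MOL), which was not lower in either overexpressing array. They are the 250 bases before the RefSeq start, 5′ to 3′ on the gene's strand. All 4 lie on the plus strand of GRCh38.p14, at chr10:100346983-100347232, chr11:65111622-65111871, chr7:155297628-155297877 and chr4:165327419-165327668 in that order. Capitals mark matches on either strand to the sterol regulatory element core CACNCCAC (GTGGNGTG on the other strand), the CCAAT box (ATTGG on the other strand) and the E-box CACGTG; none of the matches shown overlap.
SCD: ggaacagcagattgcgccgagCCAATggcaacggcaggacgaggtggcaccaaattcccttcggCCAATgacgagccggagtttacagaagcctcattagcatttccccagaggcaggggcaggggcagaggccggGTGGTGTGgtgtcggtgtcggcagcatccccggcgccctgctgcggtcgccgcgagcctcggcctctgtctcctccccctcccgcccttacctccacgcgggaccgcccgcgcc
TM7SF2: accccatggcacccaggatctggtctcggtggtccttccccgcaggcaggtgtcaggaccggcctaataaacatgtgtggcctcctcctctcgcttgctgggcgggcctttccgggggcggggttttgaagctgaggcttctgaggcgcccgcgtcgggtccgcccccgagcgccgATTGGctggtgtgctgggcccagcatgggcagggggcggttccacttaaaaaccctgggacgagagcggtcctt
INSIG1: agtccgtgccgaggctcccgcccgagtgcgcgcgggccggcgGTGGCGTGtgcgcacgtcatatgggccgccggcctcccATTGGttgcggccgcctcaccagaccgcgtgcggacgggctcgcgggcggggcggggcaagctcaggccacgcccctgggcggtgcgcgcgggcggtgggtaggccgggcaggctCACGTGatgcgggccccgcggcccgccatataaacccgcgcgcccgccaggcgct
MSMO1: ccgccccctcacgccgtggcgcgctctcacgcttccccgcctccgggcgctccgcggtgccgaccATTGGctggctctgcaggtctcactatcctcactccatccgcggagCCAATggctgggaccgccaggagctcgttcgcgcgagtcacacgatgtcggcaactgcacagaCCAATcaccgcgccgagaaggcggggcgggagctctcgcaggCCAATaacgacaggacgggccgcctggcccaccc

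SCD held 2 CCAAT boxes and a sterol element core 114 bases before the start, INSIG1 held 1 match of each of the 3 motifs, TM7SF2 held 1 CCAAT box and MSMO1 held 4. Across the 25 members with a RefSeq promoter, all but ACAT2, FDFT1, SQLE and FASN, 19 held a CCAAT box (76%), against 37.0% of 27305 genes with any start scored the same way. The sterol element core was found in 6 (IDI1, SC5DL, INSIG1, SREBF2, ACACA and SCD; 24.0% against 5.89%), and the E-box in SC5DL and INSIG1 (8.0% against 7.73%). These are matches of letters, not measured binding, and their part in the differences was not tested.

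Of the 29 members, 28 were detected in at least 1 array and 26 by at least 1 probe in all 3; the single SREBF2 probe passed in none. In the miR-483-5p array 22 of 28 members were lower than control, where 51.1% of 10849 genes were lower, and the members' median was -0.21 against -0.01 for all genes. With miR-551a 22 of 28 were also lower, against 50.5% of 11036 genes, with a median of -0.25 against 0.00 for all genes. The RNA is a bulk extract, so fewer expressing cells and less RNA per cell cannot be told apart. Lower by at least 0.322 on the log2 scale, a ratio of 5 to 4, were 9 members with miR-483-5p (14.0% of all genes) and 11 with miR-551a (17.2% of all genes), and 0 and 2 were that much higher (13.8% and 16.8% of all genes). At least 1.5-fold lower were SCD and FADS2 with miR-483-5p (4.08% of all genes) and SCD, FADS2 and TM7SF2 with miR-551a (5.54% of all genes). With miR-483-5p SCD lies at the edge of that size and came to -0.55 under median scaling. None reached 2-fold lower, a size that 0.636% and 0.96% of all genes passed.

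Most members are brightly measured, and large differences were less frequent among bright genes. Among genes brighter than the median, 8 of 23 members were at least 0.322 lower with miR-483-5p, against 10.0% of such genes, and 9 of 24 with miR-551a, against 13.8%. This background was chosen after the data had been seen. Of the 9 members past the 5 to 4 ratio with miR-483-5p, 8 stayed past it under every processing setting that gave a value, as did 7 of the 13 with miR-551a, lower and higher together.

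**Figure D1:**
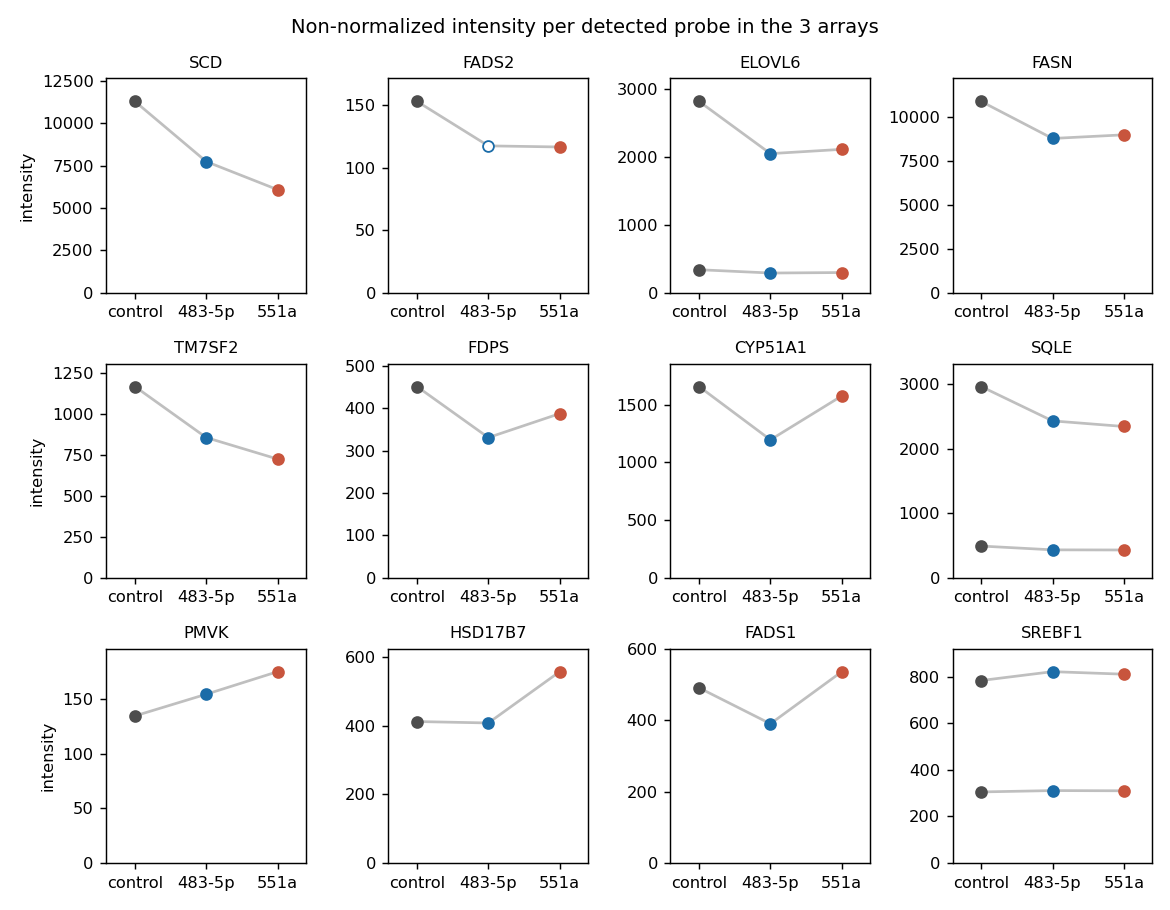
Non-normalized intensity (linear axes from 0, 1 scale per gene) of each detected probe of 12 members in the control, miR-483-5p and miR-551a arrays, 1 point per array; open points mark a probe not detected in that array. SCD ran from 11295 in control to 7741 and 6080, whereas PMVK and HSD17B7 were highest in the miR-551a array.

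The fatty acid branch had the lower median of the enzyme groups in both comparisons. With miR-483-5p 7 of 7 genes were below control (51.1% of all genes), with a median of -0.43. With miR-551a 6 of 7 were (50.5% of all genes), with a median of -0.33. At least 0.322 lower were ELOVL6, SCD, FADS1 and FADS2 in the first (14.0% of all genes). In the second they were FASN, ELOVL6, SCD and FADS2 (17.2% of all genes). The enzymes that supply the first substrates, ACLY and ACACA, lay nearest to control with miR-483-5p, and the desaturase SCD was the lowest of the 7 with miR-551a.

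ACLY, which splits citrate to give cytosolic acetyl-CoA, read 2554.1, 2611.0 and 2646.0 in control, miR-483-5p and miR-551a at its brighter probe and 1514.0, 1458.0 and 1515.5 at the other. These intensities lay close together, and the normalized differences were -0.07 with miR-483-5p and -0.13 with miR-551a. The latter became 0.01 under median scaling, where the median of all genes was 0.07. ACACA, the cytosolic acetyl-CoA carboxylase that makes malonyl-CoA, was lower by little, at -0.20 and -0.26 over the mean of 2 detected probes, while a further probe was detected in no array.

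Fatty acid synthase FASN, which builds palmitate, read 10894.5 in control, 8783.0 with miR-483-5p and 8989.7 with miR-551a. Control was the highest array, and the differences were -0.32, just short of the 5 to 4 ratio, and -0.33. ELOVL6, the elongase that extends palmitate to stearate, read 2820.7, 2050.2 and 2113.4 at its brighter probe and 338.3, 289.4 and 296.5 at its dimmer one. Control was again highest at both probes, with mean differences of -0.44 (1.35-fold lower) and -0.46 (1.37-fold lower).

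The desaturases spanned the widest range of the fatty acid genes. SCD, the stearoyl-CoA desaturase that makes monounsaturated fatty acids, read 11295 in control, 7741 with miR-483-5p and 6080 with miR-551a. The 3 arrays were separate from each other, and SCD was lower by 0.59 on the log2 scale with miR-483-5p and by 0.99, or 1.99-fold, with miR-551a. Of all genes compared, 4.0% were lower still with miR-483-5p and 1.01% with miR-551a, and over 11 settings of the processing the miR-551a value stayed between -0.99 and -0.91. SCD was measured by a single probe.

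FADS2, the delta-6 desaturase that starts the synthesis of long polyunsaturated fatty acids, read 153.1, 117.5 and 116.6, close to the background. It was not detected in the miR-483-5p array, where it was at least 1.73-fold lower, and it was 1.79-fold lower (-0.84) with miR-551a. Without background correction these dim values came to -0.42 and -0.44, so the size for FADS2 rests on that correction. FADS1, the delta-5 desaturase of the same route, read 490.8 in control, 390.0 with miR-483-5p and 536.1 with miR-551a. It was low in the miR-483-5p array alone, at -0.43 against 0.03 with miR-551a.

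**Figure D2:**
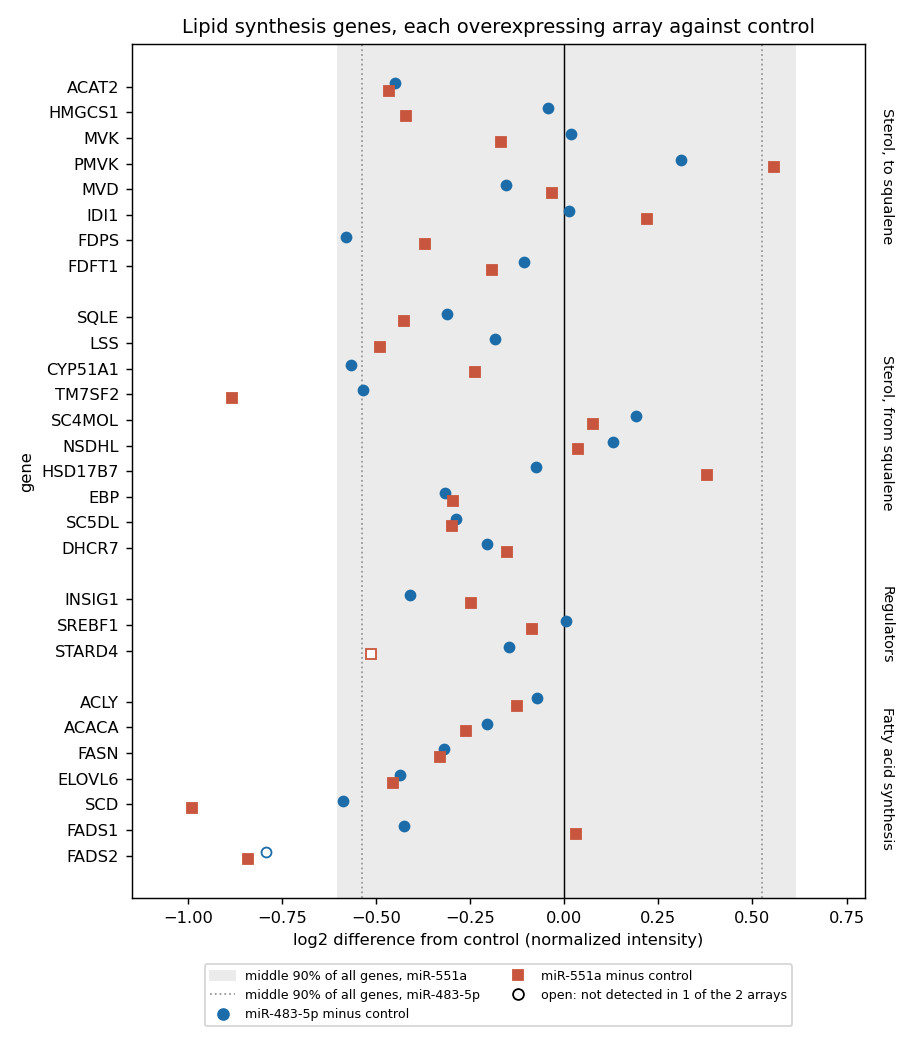
Log2 difference in normalized intensity from control for the 28 measured members by role, circles for miR-483-5p and squares for miR-551a, 1 array per group and so no error bars; the grey band (miR-551a) and dotted lines (miR-483-5p) hold the middle 90% of all genes compared. SCD and FADS2 lie left of the limit in each comparison, TM7SF2 lies left of the grey band with miR-551a (-0.88), FDPS and CYP51A1 lie left of the dotted line with miR-483-5p, and most sterol enzymes lie between -0.6 and 0.

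The 18 cholesterol enzymes were more mixed. In each comparison 13 were lower than control and 5 higher, where 51.1% and 50.5% of all genes were lower. The medians were -0.17 with miR-483-5p and -0.22 with miR-551a. The sterol median thus stood above the fatty acid median by 0.26 and 0.11. Genes brighter than the median held 16 of the 18 sterol enzymes and left out the dim FADS2, and the second gap there was 0.03. With only probes detected in all arrays, which left out FADS2 but no sterol enzyme, that gap was 0.08. At least 0.322 lower were ACAT2, FDPS, CYP51A1 and TM7SF2 with miR-483-5p (14.0% of all genes). With miR-551a they were ACAT2, HMGCS1, FDPS, SQLE, LSS and TM7SF2 (17.2% of all genes). PMVK and HSD17B7 were at least 0.322 higher with miR-551a (16.8% of all genes). Several of the miR-551a values were within 0.322 under another setting. Under median scaling FDPS came to -0.28 and SQLE to -0.30, as did the fatty acid gene FASN at -0.29, and from the authors' deposited table ACAT2 came to -0.30, FDPS to -0.27 and SQLE to -0.31. FDPS was also -0.31 without background correction. With miR-551a the median of all genes was 0.07 under median scaling and 0.03 in the authors' deposited table.

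Among the 8 enzymes that lead to squalene the medians were -0.08 and -0.18. ACAT2, the cytosolic thiolase that joins acetyl-CoA units, read 3233.3, 2517.7 and 2722.6 at its brighter probe and 181.2, 151.3 and 151.5 at the other. Control was highest at both probes, and the mean differences were -0.45 and -0.47. HMGCS1, which makes HMG-CoA, read 11591.5 in control and 11553.8 with miR-483-5p but 9171.8 with miR-551a. It was low in the miR-551a array alone, at -0.04 and -0.42.

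FDPS, which makes farnesyl diphosphate, read 451.8, 331.2 and 387.8 and was lowest with miR-483-5p (-0.58, against -0.37 with miR-551a). The kinases and isomerase before it did not share this. Phosphomevalonate kinase PMVK read 134.8, 154.7 and 175.4, control being the lowest array, with differences of 0.31 and 0.56. PMVK is dim, and without background correction these came to 0.18 and 0.33. Isopentenyl diphosphate isomerase IDI1 read 794.4, 831.5 and 1002.8 and was higher mainly with miR-551a (0.01 and 0.22).

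Mevalonate kinase MVK (0.02 and -0.17) lay near control with miR-483-5p, and the decarboxylase MVD (-0.16 and -0.03) lay near control with miR-551a. Each was lower by little in the other array. With miR-551a MVD came to 0.05 under median scaling and to 0.01 in the authors' deposited table. The medians of all genes there were 0.07 and 0.03. Squalene synthase FDFT1 differed by -0.11 and -0.19 over the mean of 2 probes.

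From squalene onward, 10 enzymes had medians of -0.25 and -0.27. SQLE, the squalene epoxidase and a rate-limiting step, read 2965.3, 2432.4 and 2345.8 at its brighter probe and 492.0, 433.0 and 431.0 at the other. Control was highest at both, with differences of -0.31 and -0.43. Lanosterol synthase LSS read 903.5, 834.1 and 727.1 at the only one of its 3 probes that was detected, lowest with miR-551a (-0.18 and -0.49); with the undetected probes averaged in, these were -0.16 and -0.04. Lanosterol demethylase CYP51A1 read 1658.6, 1196.4 and 1577.3 and was lowest with miR-483-5p (-0.57 and -0.24). The latter was -0.09 under median scaling, where the median of all genes was 0.07.

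TM7SF2, a sterol C14 reductase, read 1168.6 in control, 856.7 with miR-483-5p and 725.3 with miR-551a. The arrays followed the same order as for SCD, and TM7SF2 was 1.45-fold lower (-0.53) and 1.84-fold lower (-0.88), with 5.09% and 1.65% of genes lower still. The later enzymes EBP, the sterol isomerase (-0.32 and -0.30), SC5DL, the C5 desaturase (-0.29 and -0.30), and DHCR7, the final reductase (-0.21 and -0.15), were lower in both arrays. Under median scaling the miR-551a values came to -0.17, -0.17 and -0.04, against -0.26, -0.23 and -0.16 with miR-483-5p. The median of all genes was then 0.07 with miR-551a and 0.00 with miR-483-5p.

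The C4 demethylation steps went the other way or stayed near control. SC4MOL, the C4 methyl oxidase, was measured by 3 probes, of which the brightest read 2696.0, 2947.5 and 3057.6; its mean differences were 0.19 and 0.08. NSDHL, the C4 dehydrogenase, was close by (0.13 and 0.04). HSD17B7, the 3-ketosteroid reductase of the same complex, read 412.7, 408.5 and 558.3, high in the miR-551a array alone (-0.08 and 0.38).

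Of the regulators, SREBF1 read 783.5, 821.6 and 810.7 at its brighter probe and 304.9, 310.7 and 309.8 at a dimmer one, with differences of 0.00 and -0.09. The arrays lay close together, so transcript level of this factor was near control where several fatty acid genes were lower; its protein processing was not measured. INSIG1, the feedback protein and a target of these factors, read 599.1, 479.5 and 555.0, highest in control, and was 1.33-fold lower (-0.41) with miR-483-5p and 1.19-fold lower (-0.25) with miR-551a. A further INSIG1 probe was detected in no array, and with it averaged in the differences were -0.22 and -0.12. The miR-551a value was -0.15 under median scaling, where the median of all genes was 0.07. STARD4, a cytosolic sterol carrier, was near background at 122.8, 119.3 and 107.1, with -0.15 in the first comparison; it was not detected with miR-551a, where it was at least 1.27-fold lower (measured -0.52, or -0.23 without background correction).

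Genes with several probes gave the available internal check on single values. For the 9 such members the probes of 1 gene differed by 0.02 to 0.25 in their miR-483-5p difference (median 0.10) and by 0.02 to 0.29 in the miR-551a difference (median 0.13), against medians of 0.24 and 0.25 over 2406 and 2476 such genes. The wider set was not matched in brightness to the members, most of which are bright. Probes share the RNA and the array, so these gaps leave out differences between cultures. For ACAT2, SQLE, DHCR7, ACLY, ACACA and ELOVL6 every detected probe was lower than control in both arrays after quantile normalization. In non-normalized intensity, both ACLY probes and 1 DHCR7 probe (887.1 against 875.6) read above control with miR-551a. The brighter ACLY probe did so with miR-483-5p as well. FDFT1 had probes of 0.01 and -0.23 with miR-483-5p, and SC4MOL probes ran from -0.06 to 0.23 with miR-551a.

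**Figure D3:**
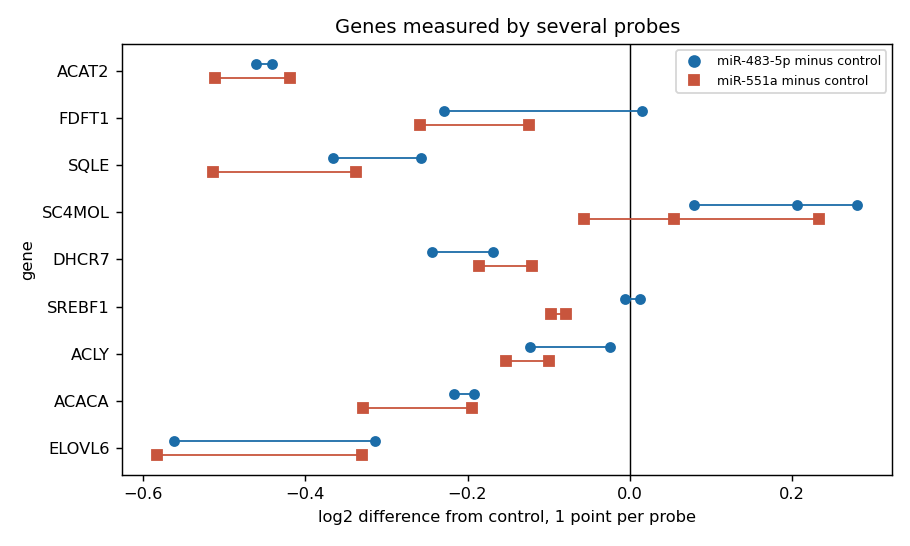
Log2 difference from control for each detected probe of the 9 members with several probes, circles for miR-483-5p and squares for miR-551a, with a line joining the probes of 1 gene. The ELOVL6 probes lie between -0.58 and -0.31, all below 0, whereas FDFT1 spans 0 with miR-483-5p and SC4MOL spans 0 with miR-551a.

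The overexpressing arrays were also set against each other, which leaves the control array out. The lists as wholes hardly differed: 18 of 28 members were lower with miR-551a than with miR-483-5p, against 49.5% of 10817 genes, and the medians were -0.01 for the sterol enzymes and -0.05 for the fatty acid genes. Under median scaling, where the median of all genes was 0.07, the counts became 11 of 28 members and 1 of 7 fatty acid genes, so the direction of the small values depends on the scaling. The 4 members at least 0.322 lower with miR-551a were HMGCS1 (-0.38), TM7SF2 (-0.35), STARD4 (-0.37) and SCD (-0.40), where 8.51% of all genes were; for STARD4, not detected with miR-551a, the bound is at least 1.14-fold.

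At least 0.322 higher with miR-551a were CYP51A1 (0.33), HSD17B7 (0.46) and FADS1 (0.46), against 9.59% of all genes. HSD17B7 and FADS1 lay where 4.21% and 4.18% of genes were higher still. Each of these 7 genes kept its direction under every setting that gave it a value, and 4 of them, HMGCS1, SCD, HSD17B7 and FADS1, also stayed past 0.322. All 7 were measured by 1 detected probe each, so no further probe checks their values. Over 2421 genes with several probes, the median gap between probes of 1 gene in this comparison was 0.23. ACLY, ACACA, FASN, ELOVL6 and FADS2 lay within 0.06 of equality, and all of these turned above 0 under median scaling.

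**Figure D4:**
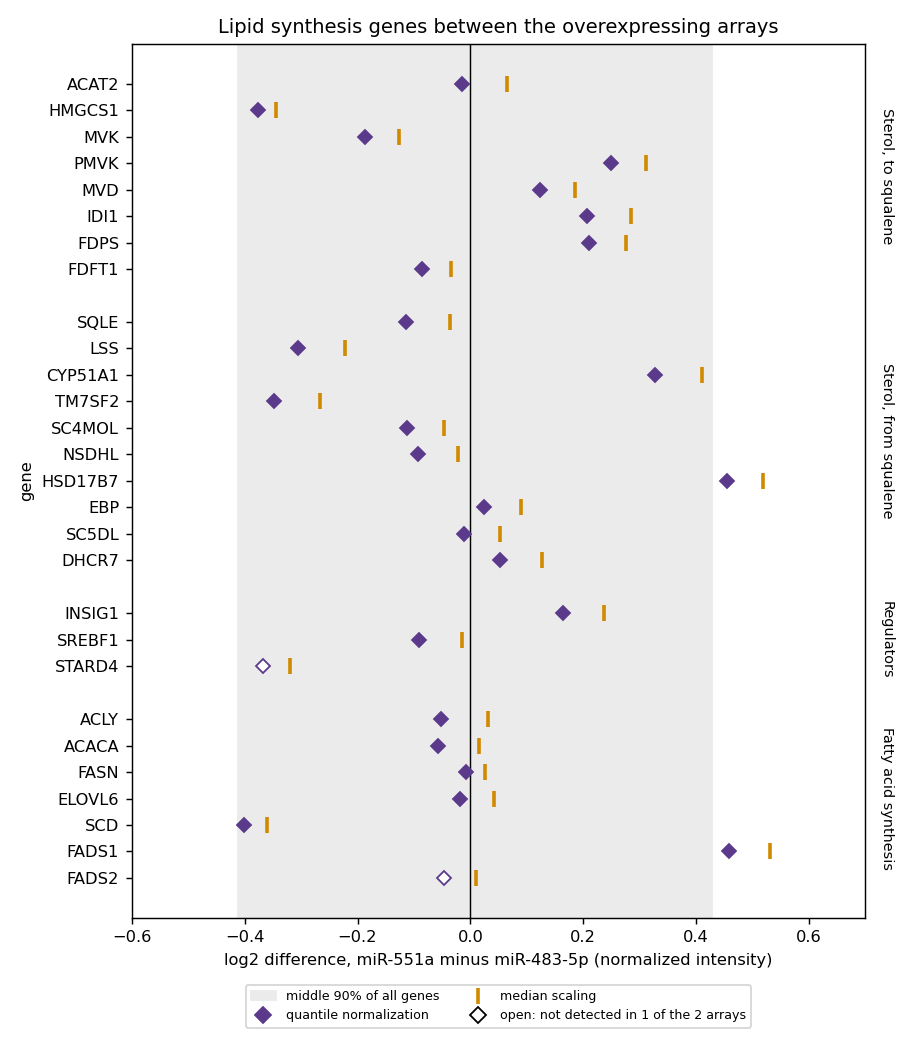
Log2 difference between the miR-551a and miR-483-5p arrays for the 28 measured members, diamonds after quantile normalization and bars after median scaling; the grey band holds the middle 90% of all genes compared and open diamonds mark genes not detected in 1 of the 2 arrays. FADS1 and HSD17B7 lie right of the band at 0.46, while SCD at -0.40 and HMGCS1 at -0.38 lie near its left edge.

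Other genes of the pathway, taken from lists chosen by function, were counted the same way. Of 19 other fatty acid genes, 17 were measured with miR-483-5p and 18 with miR-551a, of which 10 and 13 were lower, against 51.1% and 50.5% of all genes, with medians of -0.03 and -0.19. At least 1.5-fold lower were ACSS2, ACACB and MID1IP1 with miR-483-5p (4.08% of all genes) and ACSS2 with miR-551a (5.54% of all genes). ACSS2, which makes acetyl-CoA from acetate, read 3216.9, 2063.7 and 1957.5 at its brightest probe and 2105.9, 1263.3 and 1455.7 at the next. Control was highest at both, and the mean differences were -0.79 and -0.80. Further ACSS2 probes were detected in no array and are not part of these means.

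MID1IP1, an activator of acetyl-CoA carboxylase, read 808.3, 570.6 and 729.7 at its brighter probe, lowest with miR-483-5p (-0.61 and -0.35 over 2 probes). The mitochondrial carboxylase ACACB read 152.2, 120.1 and 143.9, near background, and was low with miR-483-5p (-0.71 and -0.24). Of 16 other sterol genes 14 were measured, 9 and 10 of them lower (51.1% and 50.5% of all genes), with medians of -0.16 and -0.17. None was at least 1.5-fold lower, and by measured value MBTPS2 alone was that much higher (3.74% and 5.6% of all genes). MBTPS2, a protease that releases the sterol regulatory element binding proteins from the membrane, read 100.3, 131.2 and 134.5 at 1 dim probe. It was not detected in control. The measured differences were 0.78 and 0.81, but the bounds after background correction, at least 1.38-fold and 1.40-fold higher, fall short of 1.5-fold.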

How the data were processed

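The authors deposited non-normalized intensity values for 48803 probes on 3 arrays, and beside each a column headed Detection per the file headers. By its values this deposited column is a score, a fraction from 0 to 1, whose reading no source used here states. It is near 1 for bright probes, so 1 minus it was read as a detection p, and a score above 0.99 was called detected. Upstream software is not given in the sources used here. In the deposited normalized intensity table, and the identical series matrix, the column named for miR-483 is the miR-551a column of the same table times a constant (0.965); it was not used for miR-483-5p.

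Intensities were background-corrected from the detection scores, given an offset of 16 and quantile-normalized by neqc (limma 3.58.1, R 4.3.3). This correction widens the differences of dim probes. A probe entered a comparison when either of its arrays detected it, and a gene was the mean of such probes. Targets named only by UniGene clusters were left out. Where 1 array missed a probe, its value there was raised to that array's lowest detected level if higher, and the fold is given as "at least". With 1 array per group no test, SD or p was computed; the number of arrays limits the precision. The normalization was tested on simulated data with known changes placed in bright probes only, so dim probes were not covered by it.

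The members and lists were chosen with earlier results of these data known. Named genes were every member, and other pathway genes with a 1.5-fold difference from control. Promoter and microRNA sequences are from RefSeq, GRCh38.p14; 25 members matched. Alternatives were other background corrections, offsets, scalings, detection filters and probe rules, and the deposited table.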

Additional observations from a re-analysis of the deposited data

How the results depend on the processing

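The list medians, the gap between the sterol and fatty acid medians, and the counts of lower genes were recomputed under 9 alternatives and, added after the data had been seen, for genes brighter than the median. A list median or gap was taken as moved when it shifted by 0.1 or more on the log2 scale, since no replicate spread exists. Counts were taken as moved beyond 1.5 times, a rise that a count of 22 of 28 cannot reach. With miR-551a the gap of 0.11 fell as low as 0.03 and was still not taken as moved. By these rules 166 of 168 recomputed values did not move, but some of them could not. Centring the differences on their median leaves the gap unchanged, and requiring detection in all arrays removed no sterol enzyme probe. The values that moved were both under median scaling of miR-551a against miR-483-5p. There, 1 fatty acid gene in place of 6, and 11 members in place of 18, were lower. The median of all genes there was 0.07 under that scaling, as it was for miR-551a against control. With miR-483-5p the sterol median ran from -0.21 to -0.14 and the fatty acid median from -0.43 to -0.37. With miR-551a they ran from -0.27 to -0.13 and from -0.33 to -0.29, and the deposited table gave -0.14 and -0.32. Of 764 recomputed values of single members 54 shifted by 0.1 or more, and those of members that differed by at least 0.322 kept their sign, though not always their size: 1 of 9 with miR-483-5p (INSIG1), 6 of 13 with miR-551a (ACAT2, FDPS, SQLE, LSS, STARD4 and FASN) and 3 of 7 between the overexpressing arrays (CYP51A1, TM7SF2 and STARD4) were within 0.322 under at least 1 alternative. No paired analysis was possible because each group holds 1 array, and for the same reason no replicate could be left out.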

Other observations

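The deposited normalized table reads differently for these genes in the column named for miR-483. In the authors' deposited table FADS1 is 490.8 in control, 500.7 in that column and 519.0 in the miR-551a column, although the non-normalized miR-483-5p array read 390.0, the lowest of the 3. HSD17B7 is 521.4 in that column of the authors' deposited table, where the non-normalized miR-483-5p array read 408.5, and SCD is 5679 where it read 7741. That column is a constant multiple of the miR-551a column, so its gap from the miR-483-5p array is fixed by construction.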
